A study of Mus musculus with 11 samples.

Results

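The genes of sterol and fatty acid synthesis were followed across CD8+ effector T cells of mouse that differed in the cell of origin and in a final stimulation. The list holds 36 genes for the enzymes of the mevalonate and cholesterol pathways, for fatty acid synthesis and desaturation, and for the control and export of sterols. A gene entered with its annotated single-symbol probe set of highest mean over the 11 arrays. Of the 36 genes, 33 had such a probe set, out of 18193 genes in all; Acat2, Soat1 and Nr1h2 are not analysed here. All 33 passed the filter on low values described below, as did 14795 of the 18193 genes.

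All cells carried the pmel-1 transgene, which encodes a T cell receptor against gp100, a protein of melanocytes. CD8+ cells were separated by the surface protein CD44 into naive (CD44-) or central memory (CD44+) cells, activated on bound antibodies to CD3 and CD28, restimulated after a week on allogeneic feeder cells loaded with human gp100 peptide, and kept in interleukin 2 (10 cetus units) for 2 weeks in all. They then received CD3/CD28 antibodies for 4 h (stimulated) or nothing (unstimulated). There were 3 memory-derived unstimulated, 3 memory-derived stimulated, 2 naive-derived unstimulated and 3 naive-derived stimulated arrays, numbered by 3 independent experiments, with strain, age and sex not given in the sources used here.

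Cells build cholesterol from acetyl-CoA through mevalonate, isoprenoid diphosphates and squalene, and build fatty acids from the same acetyl-CoA through malonyl-CoA. The SREBP transcription factors, made from Srebf1 and Srebf2, drive both routes; the escort Scap carries them from the endoplasmic reticulum to the Golgi when sterol is low, and Insig1 holds the complex back when sterol is high. Liver X receptors (LXR) act on the other side, inducing the sterol exporters Abca1 and Abcg1 when oxysterols accumulate. Activated T cells are known to raise lipid synthesis through SREBP to supply membrane for growth.

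Values are normalised probe set values on the log2 scale, and a difference of 1 is a 2-fold change; the base of the deposited logarithm (10) was inferred from the hybridization controls. A gene was tested when its probe set lay above 1.54, the 40th percentile of an array, on at least 2 arrays. "Passed" means an adjusted p below 0.05 in the limma model of all 11 arrays, adjusted over the 14795 genes. In these bulk samples, a change in RNA per cell and a change in the share of cells that carry the RNA cannot be told apart.

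The 8 measured markers of CD8+ T cells (such as Cd8a and Cd3e) were above the filter level on all 11 arrays. Their summed level, unstimulated then stimulated, was 67.1 to 67.4 and 64.1 to 64.2 in memory-derived cells. In naive-derived cells it was 67.8 to 67.9 and 66.1 to 67.1. Markers of other cells were mixed. Above the filter level on at least 2 arrays were 4 of 6 B cell, 6 of 7 macrophage and monocyte, 4 of 5 dendritic cell and 2 of 3 CD4 or regulatory T cell markers. The B cell markers Cd22, Blk and Pax5 were above it on 11, 10 and 9 arrays and the macrophage markers Csf1r, Adgre1, Cd68 and Cd14 on 11, 11, 11 and 9, whereas Cd79a, Ms4a1, Mpeg1, Siglech and Cd4 were above it on 0 of 11. The summed level of 7 macrophage and monocyte markers ran from 15.2 to 17.01 in unstimulated and from 16.2 to 16.4 in stimulated cells of memory origin, and from 14.0 to 14.2 in unstimulated and from 13.0 to 15.1 in stimulated cells of naive origin. Of these markers, Cd68 stood at 5.12 to 5.37 without and 4.54 to 4.91 with stimulation in memory-derived cells, and at 3.32 to 3.82 and 2.96 to 4.03 in naive-derived cells. The dendritic cell marker Itgax stood at 5.99 to 6.65 and 5.41 to 5.72 in memory-derived, and at 4.20 to 4.80 and 4.13 to 4.81 in naive-derived cells. Cd68 and Itgax thus separated the origins, and stimulation within the memory origin, without overlap, with memory-derived unstimulated arrays highest. Other markers went the other way. Means of Csf1r, Adgre1, Lyz2 and Zbtb46 were lowest in memory-derived unstimulated cells. Csf1r averaged 2.46 there, 2.77 in memory-derived stimulated, 2.80 in naive-derived unstimulated and 2.73 in naive-derived stimulated cells. Zbtb46 averaged 3.09, 3.77, 3.45 and 3.59 in these groups, and Cd14 2.71, 2.81, 1.51 and 1.60. The summed level of the 5 dendritic cell markers, unstimulated then stimulated, was 13.2 to 14 and 13.2 to 13.8 in memory-derived cells. In naive-derived cells it was 11.4 to 12.9 and 11.7 to 13.7. The 3' minus 5' difference of the actin control probe sets, a sign of RNA quality, was 0.87 to 1.17 (log2) in unstimulated and 1.43 to 1.73 in stimulated cells of memory origin, and 1.54 to 1.59 in unstimulated and 1.93 to 2.60 in stimulated cells of naive origin. The actin difference thus moved with stimulation in each origin and with origin in each state. The same difference for Gapdh, unstimulated then stimulated, was -1.51 to -1.29 and -1.43 to -1.38 in memory-derived cells. In naive-derived cells it was -1.65 to -1.42 and -1.82 to -1.48. The Gapdh ranges overlapped except between the origins in stimulated cells. The part of these measures, and of the CD8+ T cell, macrophage and dendritic cell markers, in the results was not tested. On the first principal component, memory-derived unstimulated array 3 was at 77.4 and the other arrays of its group at 50.4 and 40.3. Values without array 3 are given for some of the members, and not for the further lists.

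**Figure D1:**
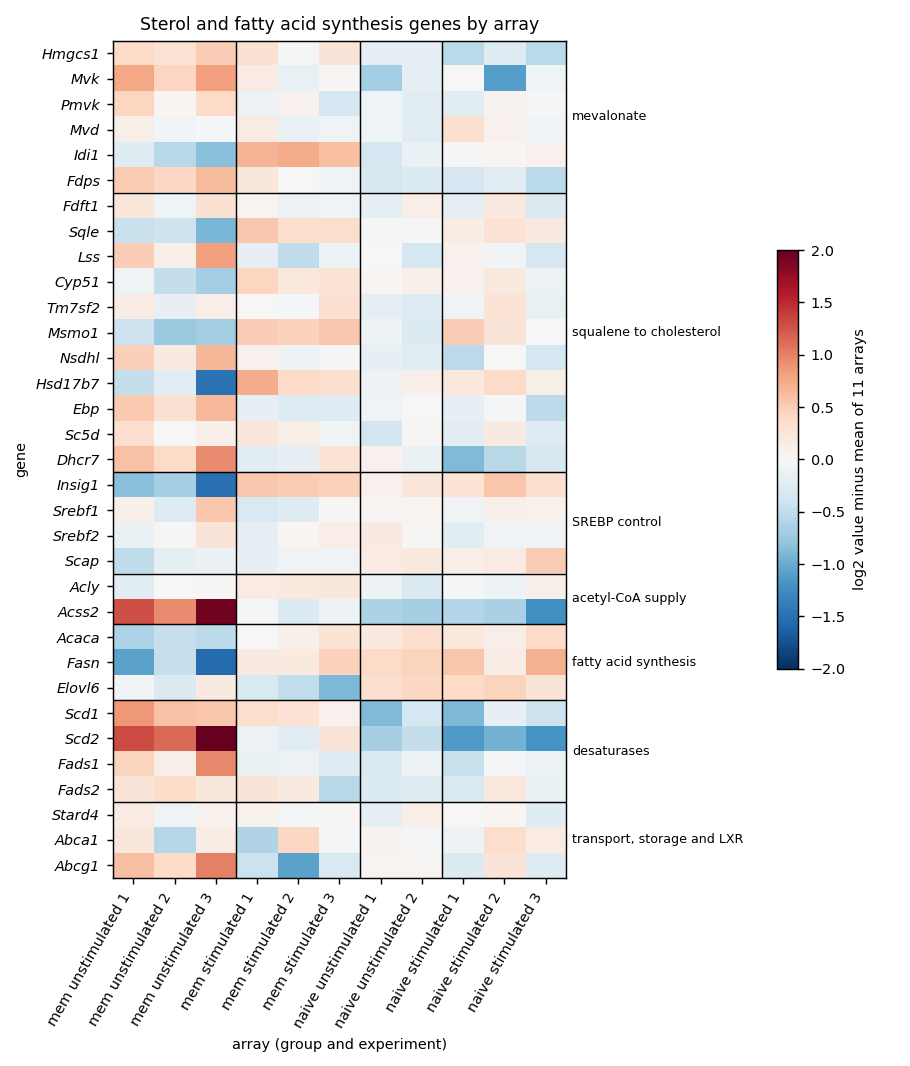
Log2 value of each of the 33 genes on each of the 11 arrays, minus the gene's mean over the arrays (colour), with genes in order of their role and arrays grouped by origin and final stimulation. The 3 memory-derived unstimulated arrays stand out, with genes in both directions: Acss2 and Scd2 are highest there and Insig1 and Fasn lowest.

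Memory-derived effectors with and without the last 4 h of CD3/CD28 antibodies were compared first. The pathway did not move as a block: 8 of the 33 genes rose, 9 fell and 16 did not pass. The rises came from Insig1, from 5 sterol enzymes (Idi1, Sqle, Cyp51, Msmo1 and Hsd17b7) and from the enzymes that make palmitate, Fasn and Acaca. The falls came from 4 other sterol enzymes (Fdps, Lss, Ebp and Dhcr7), from the acetyl-CoA maker Acss2, from Scd2, Fads1 and Elovl6, which desaturate or lengthen fatty acids, and from the exporter Abcg1. Of all genes tested, 14.3% rose and 17.3% fell in this comparison, against 24.2% and 27.3% of the 33. The median difference of the 33 was -0.20 on the log2 scale, against 0.00249 over all genes tested. Values of the unstimulated and stimulated arrays did not overlap for 9 members that were higher and 12 that were lower, as was so for 21.9% and 24.7% of all genes tested.

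Insig1, the brake on SREBP and itself a target of it, had the largest rise of the list. It stood at 3.85, 4.02 and 3.20 on the unstimulated and at 5.23, 5.19 and 5.15 on the stimulated memory-derived arrays (log2 value). The groups did not overlap, and array 3 was the lowest of the unstimulated arrays. The difference was 1.50 (SE 0.19, n = 3 and 3, limma adjusted p = 0.00035), a 2.83-fold rise, and 1.26 without array 3. The genes of the factors themselves did not pass: Srebf1 differed by -0.31 (95% interval -0.71 to 0.10), Srebf2 by -0.05 (-0.36 to 0.25) and Scap by 0.18 (-0.14 to 0.50).

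In the mevalonate steps Idi1 alone passed upward. Idi1, which isomerises isopentenyl diphosphate, stood at 6.72, 6.41 and 6.12 on the unstimulated and 7.64, 7.70 and 7.55 on the stimulated arrays. The stimulated arrays lay close together and all above the unstimulated ones, and the rise was 1.22 (SE 0.154, limma adjusted p = 0.000341). Fdps, which joins the isoprenoid units to farnesyl diphosphate in the next step, moved the other way, from 6.56, 6.47 and 6.69 to 6.27, 6.04 and 5.96. It fell by 0.48 on the log2 scale (SE 0.134, limma adjusted p = 0.0188). Among the enzymes before Idi1, differences that did not pass were -0.66 for mevalonate kinase Mvk (adjusted p = 0.085), -0.41 for phosphomevalonate kinase Pmvk (0.068), -0.21 for the HMG-CoA synthase Hmgcs1 (0.278) and -0.03 for the decarboxylase Mvd (0.919).

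From squalene to cholesterol, 4 of 11 enzymes rose and 3 fell (36.4% and 27.3%), so neighbouring steps parted. Of all genes tested, 14.3% rose and 17.3% fell. Sqle, the squalene epoxidase and a rate-limiting step, stood at 5.12, 5.16 and 4.65 without and 6.11, 5.93 and 5.92 with stimulation, a rise of 1.01 (SE 0.147, limma adjusted p = 0.000714). Lss, which cyclises the product of Sqle to lanosterol, stood at 4.18, 3.82 and 4.52 without and 3.52, 3.19 and 3.59 with stimulation. It fell by 0.74 on the log2 scale (SE 0.199, limma adjusted p = 0.0159).

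The enzymes that strip the methyl groups of lanosterol rose where they passed. Cyp51, the lanosterol 14-alpha demethylase, had values of 6.07, 5.68 and 5.48 and then 6.59, 6.36 and 6.43, a rise of 0.72. Msmo1, the C-4 methyl oxidase, had 5.11, 4.77 and 4.82 and then 6.02, 5.98 and 6.05, a rise of 1.12 (SE 0.15, limma adjusted p = 0.000482). Hsd17b7, the 3-ketosteroid reductase of that step, had 3.76, 4.02 and 2.77 and then 4.99, 4.63 and 4.57, a rise of 1.21. None of these groups overlapped. Unstimulated array 3 at 2.77 lay far below its group for Hsd17b7, whose rise was 0.84 without it.

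Ebp and Dhcr7, which act late in the pathway, fell. Ebp, the sterol delta8-delta7 isomerase, stood at 6.74, 6.52 and 6.86 without and 6.05, 5.96 and 5.95 with stimulation and fell by 0.72 (SE 0.15, limma adjusted p = 0.00455). Dhcr7, which makes cholesterol from 7-dehydrocholesterol, had a change of -0.68 (limma adjusted p = 0.0248), from 3.33, 3.13 and 3.69 to 2.52, 2.58 and 3.01. For both genes every stimulated array was below every unstimulated one. Nsdhl, which works beside Msmo1 and Hsd17b7, had a difference of -0.46 that did not pass (adjusted p = 0.0534), and the differences of Fdft1 (squalene synthase), Tm7sf2 (a sterol C14 reductase) and Sc5d (the lathosterol desaturase) lay between -0.20 and 0.05 (adjusted p at least 0.419).

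**Figure D2:**
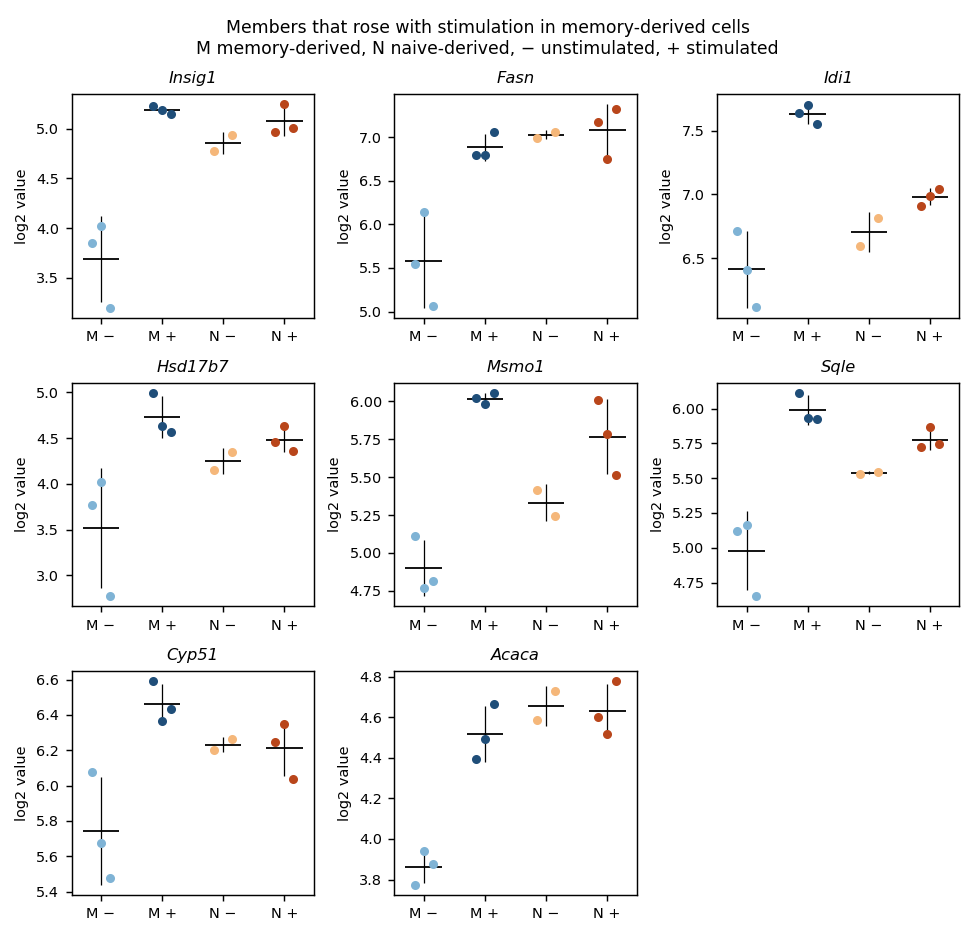
Log2 value on each array (points), with the group mean (horizontal line) and ± 1 SD (vertical line), for the 8 genes that rose in memory-derived cells on stimulation; y axes differ between panels and do not start at 0. In each panel the 3 memory-derived stimulated arrays lie above the 3 unstimulated ones. All 5 naive-derived arrays also lie above the memory-derived unstimulated ones, except for Idi1 and Cyp51.

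Both enzymes of palmitate synthesis rose. Fasn, the fatty acid synthase, stood at 5.54, 6.14 and 5.07 without and 6.80, 6.80 and 7.06 with stimulation, and Acaca, the acetyl-CoA carboxylase that feeds it, at 3.77, 3.94 and 3.88 without and 4.39, 4.49 and 4.67 with it. The groups did not overlap for either gene. The rise was 1.30 for Fasn (SE 0.243, limma adjusted p = 0.00257; 1.04 without array 3) and 0.65 for Acaca (SE 0.126, limma adjusted p = 0.00299). Acly, which makes cytosolic acetyl-CoA from citrate, was higher on every stimulated than on every unstimulated array, but its difference of 0.26 did not pass (adjusted p = 0.134).

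Acss2, Scd2, Fads1 and Elovl6 fell. Acss2, which makes acetyl-CoA from acetate, stood at 4.86, 4.53 and 5.51 and then 3.53, 3.30 and 3.47, the largest fall of the list at 2.89-fold (-1.53 on the log2 scale, SE 0.241, limma adjusted p = 0.00103). Scd2, a stearoyl-CoA desaturase that makes monounsaturated fatty acids, stood at 7.21, 7.04 and 7.96 and then 5.79, 5.70 and 6.17, a 2.86-fold fall (-1.52, SE 0.222, limma adjusted p = 0.000725). Both were highest on unstimulated array 3, and without it the changes were -1.26 and -1.24. Fads1, the delta-5 desaturase of polyunsaturated fatty acids, changed by -0.69 (adjusted p = 0.022) and Elovl6, which lengthens palmitate, by -0.52 (0.0409). The differences of Scd1 (-0.43) and Fads2, the delta-6 desaturase (-0.32), did not pass.

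Of the genes of sterol movement, Abcg1, which exports sterol to lipoproteins, stood at 2.88, 2.65 and 3.28 without and 1.84, 1.20 and 1.97 with stimulation. It fell by 1.27 on the log2 scale (SE 0.233, limma adjusted p = 0.00235), although 1 stimulated array lay below the filter level. Without unstimulated array 3 the Abcg1 difference was -1.09. Abca1, the other exporter, was near the filter level in all groups and differed by -0.0024 (95% interval -0.60 to 0.59). Stard4, a carrier of cholesterol between membranes, differed by -0.04 (-0.33 to 0.26).

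**Figure D3:**
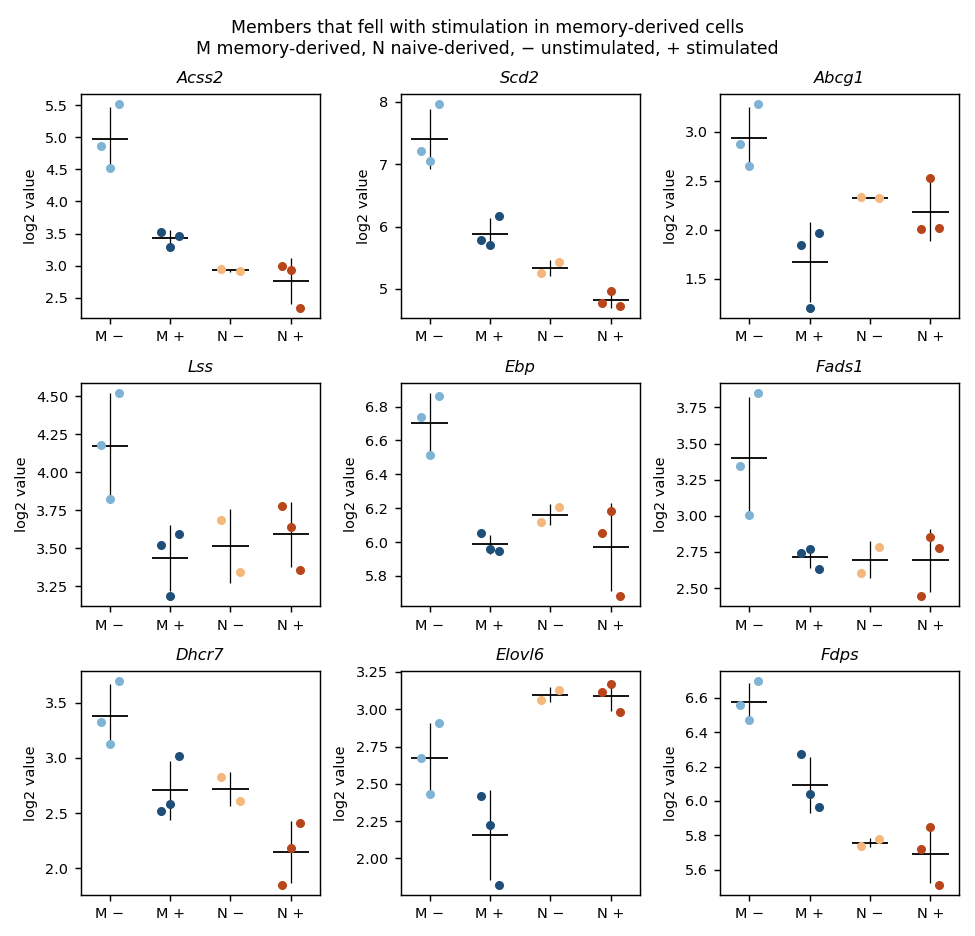
Log2 value on each array (points), with the group mean (horizontal line) and ± 1 SD (vertical line), for the 9 genes that fell in memory-derived cells on stimulation; y axes differ between panels and do not start at 0. The memory-derived unstimulated arrays are highest in 8 panels; Elovl6 is the exception, with the naive-derived arrays highest.

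The 8 rises passed in each of the 11 fits that left out 1 array. Of the 9 falls, Acss2, Scd2, Abcg1 and Ebp did so too, and the others depended on single arrays. Without memory-derived unstimulated array 3 there were 4 falls, and also 4 without memory-derived stimulated array 2. In what follows each array was left out singly, and the adjusted p of that limma fit is in parentheses. The Fdps call was lost without memory-derived unstimulated array 3 (0.0573), or memory-derived stimulated array 2 or 3 (0.0669, 0.0727). The Lss call was lost without memory-derived unstimulated array 3 (0.0617), or memory-derived stimulated array 2 (0.0678). The Dhcr7 call was lost without memory-derived unstimulated array 1 or 3 (0.0505, 0.0961), or memory-derived stimulated array 1 or 2 (0.0905, 0.0844). The Fads1 call was lost without memory-derived unstimulated array 3 (0.0653), or memory-derived stimulated array 1, 2 or 3 (0.0528, 0.051, 0.0671). The Elovl6 call was lost without memory-derived unstimulated array 1 or 3 (0.0875, 0.139), memory-derived stimulated array 2 or 3 (0.0767, 0.153), naive-derived unstimulated array 1 or 2 (0.0561, 0.0561), or naive-derived stimulated array 1 (0.0544). With the replicate block (experiment), Elovl6 was also lost (adjusted p = 0.0612).

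Promoter sequences are shown for the 4 largest rises and the 3 largest falls that have a single entry among the RefSeq promoters used here (GRCm38.p6, 250 bases before to 50 after the start). They are printed so that genes of these pathways that moved in opposite directions can be compared by their promoter letters. Capitals mark matches on either strand to the sterol regulatory element core TCACNCCA, to the CCAAT box (CCAAT) that binds NF-Y, a known partner of SREBP, and to the E-box CACGTG; matches that overlap run together. The first 4 genes rose and the last 3 fell.
Insig1 (chr5:28071162-28071461, plus strand): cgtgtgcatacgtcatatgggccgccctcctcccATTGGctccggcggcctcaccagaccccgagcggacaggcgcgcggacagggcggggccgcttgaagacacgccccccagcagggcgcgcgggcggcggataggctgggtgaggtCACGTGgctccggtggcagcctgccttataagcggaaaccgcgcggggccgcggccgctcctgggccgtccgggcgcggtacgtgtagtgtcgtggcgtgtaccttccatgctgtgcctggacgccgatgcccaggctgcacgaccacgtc
Fasn (chr11:120824498-120824797, minus strand): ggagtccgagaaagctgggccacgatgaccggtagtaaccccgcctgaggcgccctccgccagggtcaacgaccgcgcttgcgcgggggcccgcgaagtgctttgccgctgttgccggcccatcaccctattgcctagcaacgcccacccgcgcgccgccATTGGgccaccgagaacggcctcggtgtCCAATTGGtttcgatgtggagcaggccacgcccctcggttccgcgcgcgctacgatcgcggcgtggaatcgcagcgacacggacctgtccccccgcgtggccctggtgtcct
Idi1 (chr13:8885356-8885655, plus strand): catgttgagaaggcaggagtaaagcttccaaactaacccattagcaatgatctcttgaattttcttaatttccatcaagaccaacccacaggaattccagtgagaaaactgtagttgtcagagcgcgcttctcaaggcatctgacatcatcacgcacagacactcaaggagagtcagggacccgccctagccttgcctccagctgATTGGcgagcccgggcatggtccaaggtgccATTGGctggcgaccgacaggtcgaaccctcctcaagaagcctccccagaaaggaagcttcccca
Hsd17b7 (chr1:169969156-169969455, minus strand): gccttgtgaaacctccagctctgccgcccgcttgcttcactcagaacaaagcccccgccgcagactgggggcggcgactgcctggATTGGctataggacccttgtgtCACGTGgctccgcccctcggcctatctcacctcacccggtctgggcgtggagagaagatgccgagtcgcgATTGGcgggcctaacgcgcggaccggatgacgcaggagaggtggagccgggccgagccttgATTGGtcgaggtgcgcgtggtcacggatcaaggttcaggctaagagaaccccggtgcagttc
Acss2 (chr2:155517793-155518092, plus strand): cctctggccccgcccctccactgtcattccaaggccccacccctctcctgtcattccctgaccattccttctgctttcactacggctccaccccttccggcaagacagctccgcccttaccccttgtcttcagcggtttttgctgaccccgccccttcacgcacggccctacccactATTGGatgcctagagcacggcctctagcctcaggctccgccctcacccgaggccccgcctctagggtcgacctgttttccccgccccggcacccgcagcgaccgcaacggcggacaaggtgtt
Lss (chr10:76531355-76531654, plus strand): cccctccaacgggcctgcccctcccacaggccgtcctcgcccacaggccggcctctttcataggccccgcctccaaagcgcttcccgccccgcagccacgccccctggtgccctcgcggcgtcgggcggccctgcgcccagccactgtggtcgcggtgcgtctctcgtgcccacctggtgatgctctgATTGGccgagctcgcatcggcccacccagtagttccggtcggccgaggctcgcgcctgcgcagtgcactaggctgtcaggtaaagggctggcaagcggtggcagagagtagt
Ebp (chrX:8193463-8193762, minus strand): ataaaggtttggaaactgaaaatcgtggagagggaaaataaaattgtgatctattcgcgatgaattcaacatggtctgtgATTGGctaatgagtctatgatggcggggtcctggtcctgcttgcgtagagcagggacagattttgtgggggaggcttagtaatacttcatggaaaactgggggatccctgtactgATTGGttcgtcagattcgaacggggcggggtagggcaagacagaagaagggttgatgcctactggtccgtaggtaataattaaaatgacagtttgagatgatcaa
All 7 windows held at least 1 CCAAT match: 1 in Insig1, Acss2 and Lss, 2 in Idi1 and Ebp, and 3 in Fasn and Hsd17b7. The E-box was in Insig1 and Hsd17b7, both of which rose, and the sterol element core was in none of the 7. Over the members with a promoter entry, a CCAAT match was present in 6 of 7 that rose, 4 of 5 that fell and 10 of 13 that were not called, and in 37.4% of the 32851 promoters of the same length. The sterol element core was present in 1 of 7 that rose (Msmo1), 0 of 5 that fell and 2 of 13 not called (Hmgcs1 and Srebf2), against 4.36% of all promoters. The E-box was present in 2, 1 and 3 of these members, against 7.15%. A member counted as matched when any of its promoter entries matched, whereas the percentages count single entries, so the measures are unlike. All of these are letter matches in a fixed window and were not measured as binding.

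Naive-derived effectors were compared in the same way, from 2 unstimulated and 3 stimulated arrays. None of the 33 genes passed (0 in limma with all arrays and in every alternative run), as only 0.0135% of all genes tested did. At an unadjusted p below 0.05 there were 2 members, Msmo1 (0.44) and Dhcr7 (-0.57), against 8.46% of all genes. Differences ran from -0.57 to 0.44, with a median of 0.03 (0.00721 over all genes). Of the genes that rose in memory-derived cells, Insig1, Idi1, Sqle, Msmo1 and Hsd17b7 were higher here without overlap, and Cyp51, Fasn and Acaca overlapped. Of those that fell, Scd2 and Dhcr7 were lower without overlap, and the others overlapped. The share of all genes without overlap is not given here for naive-derived cells.

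The levels show where the naive-derived cells stood. Insig1 was at 4.78 and 4.93 on the unstimulated and 4.97, 5.24 and 5.01 on the stimulated naive-derived arrays, a difference of 0.22 (95% interval -0.25 to 0.69). Fasn was at 6.99 and 7.06 without and 7.17, 6.75 and 7.32 with stimulation, a difference of 0.06 (-0.54 to 0.66). These naive-derived values, stimulated or not, were above all 3 memory-derived unstimulated arrays for both genes. The same held for Sqle, Msmo1, Hsd17b7 and Acaca, and not for Idi1 and Cyp51.

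Among the enzymes, Msmo1 stood at 5.42 and 5.24 without and 6.01, 5.78 and 5.51 with stimulation, and every stimulated array was above both unstimulated ones. Its difference of 0.44 did not pass (SE 0.168, limma adjusted p = 0.522). Idi1 stood at 6.60 and 6.82 without and 6.91, 6.99 and 7.04 with it, again without overlap, and its difference of 0.27 did not pass (adjusted p = 0.722). Scd2 stood at 5.25 and 5.43 without and 4.78, 4.97 and 4.73 with it, lower on every stimulated array, with a difference of -0.51 that did not pass (adjusted p = 0.616). With 2 unstimulated arrays the intervals are wide, so these results do not show that the genes stayed level.

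**Figure D4:**
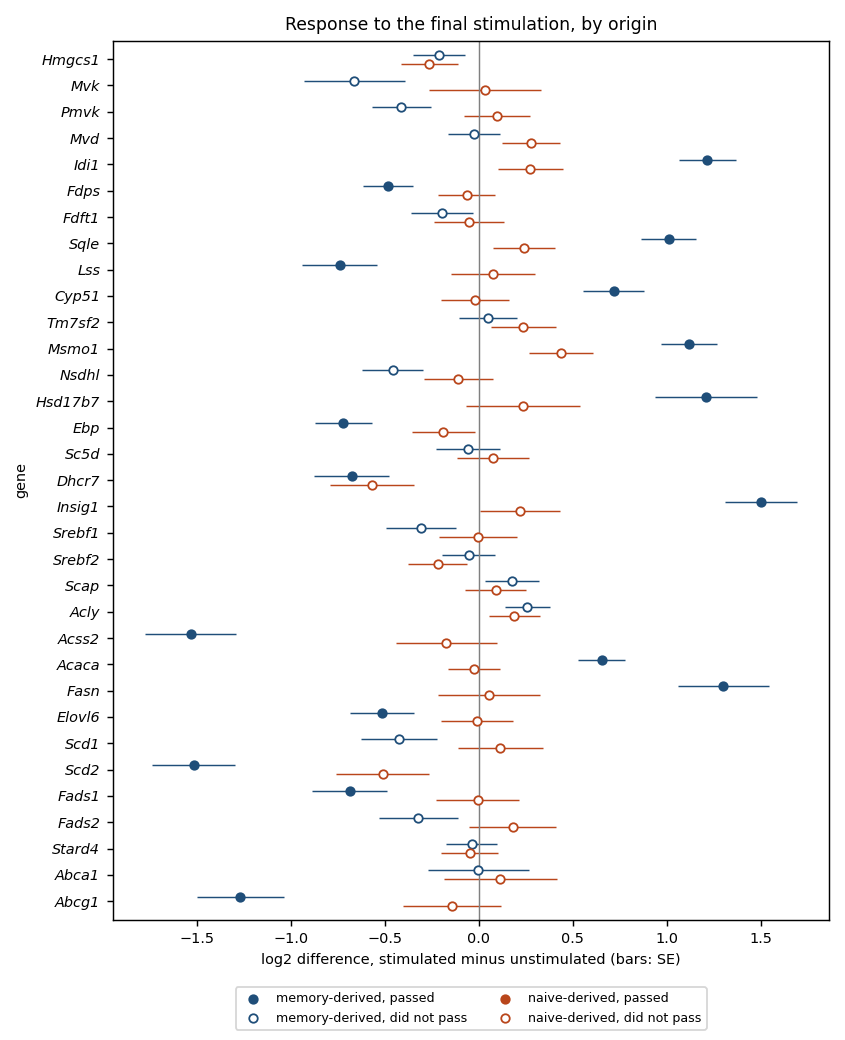
Log2 difference of stimulated minus unstimulated cells (x axis, bars are ± 1 SE) for the 33 genes (y axis) in memory-derived and in naive-derived cells; filled points passed. Memory-derived points spread from -1.53 for Acss2 to 1.50 for Insig1, and naive-derived points from -0.57 for Dhcr7 to 0.44 for Msmo1.

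An interaction term set the responses of both origins against each other. Insig1 alone passed: its response was -1.28 in naive-derived minus memory-derived cells (SE 0.286, 95% interval -1.91 to -0.65, limma adjusted p = 0.0438). Over all genes tested 1.09% passed with a negative and 1.62% with a positive difference; among the genes called, 59.6% were positive, and 46.6% with scaling to the hybridization controls. At an unadjusted p below 0.05 there were 14 of the 33 (23.3% of all genes), among them Acss2 (1.36, adjusted p = 0.0654), Idi1 (-0.94, 0.0558), Acaca (-0.68, 0.0727) and Fasn (-1.25, 0.0838). The call for Insig1 was lost with the replicate block (adjusted p = 0.0766). The Insig1 call was lost without memory-derived unstimulated array 1 (0.0626), memory-derived stimulated array 1, 2 or 3 (0.0903, 0.107, 0.0853), naive-derived unstimulated array 1 or 2 (0.143, 0.144), or naive-derived stimulated array 1, 2 or 3 (0.0881, 0.0775, 0.068). Over all alternatives its difference ran from -1.45 to -1.03 and its adjusted p from 0.0147 to 0.144. Without memory-derived unstimulated array 2, 4 members passed with a negative and 2 with a positive difference.

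The third comparison set naive-derived against memory-derived cells without the final stimulation. Of the 33 genes, 4 were higher in naive-derived cells (Insig1, Sqle, Fasn and Acaca) and 9 lower (Hmgcs1, Mvk, Fdps, Nsdhl, Ebp, Acss2, Scd1, Scd2 and Fads1). Of all genes tested 10.9% were higher and 14.9% lower, against 12.1% and 27.3% of the members. This comparison shares its 3 memory-derived unstimulated arrays with the first, so a value that is extreme on those arrays enters both with the same sign.

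Scd2 had the largest difference, at 5.25 and 5.43 on the naive-derived arrays against 7.21, 7.04 and 7.96 on the memory-derived ones. It was 4.18-fold lower in naive-derived cells (-2.06 on the log2 scale, SE 0.248, n = 2 and 3, limma adjusted p = 0.000419). Acss2, at 2.95 and 2.91 against 4.86, 4.53 and 5.51, was 4.09-fold lower (-2.03, SE 0.269, limma adjusted p = 0.000609). Without memory-derived unstimulated array 3 the differences were -1.79 for Scd2 and -1.76 for Acss2. For both genes the naive-derived unstimulated arrays also lay below every memory-derived stimulated array.

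Scd1, the desaturase that responds to SREBP and LXR in liver, passed by origin and did not pass for stimulation (-0.43 in memory-derived cells, without overlap). It stood at 2.31 and 2.84 on the naive-derived and 4.05, 3.77 and 3.74 on the memory-derived arrays, a difference of -1.28 (SE 0.226, limma adjusted p = 0.00265). Scd1 and Scd2 are close paralogues, and cross-hybridization between their probe sets was not tested.

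Fasn (1.44, SE 0.272), Insig1 (1.17, SE 0.213) and Acaca (0.79, SE 0.14) were higher in naive-derived cells. Without memory-derived unstimulated array 3 the differences were 1.18 for Fasn, 0.92 for Insig1 and 0.80 for Acaca. For each of these 3 genes both naive-derived arrays lay above all 3 memory-derived ones. The mevalonate enzymes that passed were lower: Hmgcs1 stood at 7.11 and 7.11 against 7.67, 7.59 and 7.80 (-0.57), Fdps at 5.74 and 5.78 against 6.56, 6.47 and 6.69 (-0.82) and Mvk at 1.76 and 2.27 against 3.21, 2.88 and 3.26 (-1.10). Hmgcs1 and Mvk did not pass for stimulation in memory-derived cells, though Mvk was lower there on every stimulated array (-0.66, limma adjusted p = 0.085). Whether the effects of origin and stimulation differ was not tested. The other Mvk probe set differed by -0.25 by origin. Idi1 (0.30, adjusted p = 0.242), Cyp51 (0.49, 0.0694), Msmo1 (0.43, 0.0844) and Hsd17b7 (0.73, 0.102) were higher on average and did not pass.

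Fasn, Insig1, Acaca, Acss2, Scd1, Scd2 and Fdps passed in all 11 fits that left out 1 array. The count of lower genes went from 9 to 4 without naive-derived unstimulated array 1, and to 5 without naive-derived unstimulated array 2, memory-derived unstimulated array 1 or memory-derived unstimulated array 3. The Hmgcs1 call was lost without naive-derived unstimulated array 1 or 2 (0.0945, 0.0977). The Mvk call was lost without memory-derived unstimulated array 1 or 3 (0.0542, 0.0613), or naive-derived unstimulated array 1 (0.165). The Sqle call was lost without naive-derived unstimulated array 1 or 2 (0.118, 0.131). The Nsdhl call was lost without memory-derived unstimulated array 1 or 3 (0.0636, 0.0749), or naive-derived unstimulated array 1 or 2 (0.105, 0.133). The Ebp call was lost without memory-derived unstimulated array 1 or 3 (0.0788, 0.0915), memory-derived stimulated array 2 or 3 (0.0531, 0.0507), or naive-derived unstimulated array 1 or 2 (0.171, 0.116). The Fads1 call was lost without memory-derived unstimulated array 1 or 3 (0.0673, 0.0864), memory-derived stimulated array 1, 2 or 3 (0.0532, 0.0541, 0.0519), or naive-derived unstimulated array 1 or 2 (0.195, 0.105). With the replicate block, Sqle (adjusted p = 0.0599), Nsdhl (0.0659), Ebp (0.0584) and Fads1 (0.0846) were not called. With the mean of all probe sets of a gene, 3 calls were lost, with differences of -0.48 for Fdps (adjusted p = 0.0773), -0.68 for Mvk (adjusted p = 0.0928) and -0.31 for Fads1 (adjusted p = 0.315). The only other probe set of Fdps did not reach the filter level on 2 arrays.

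**Figure D5:**
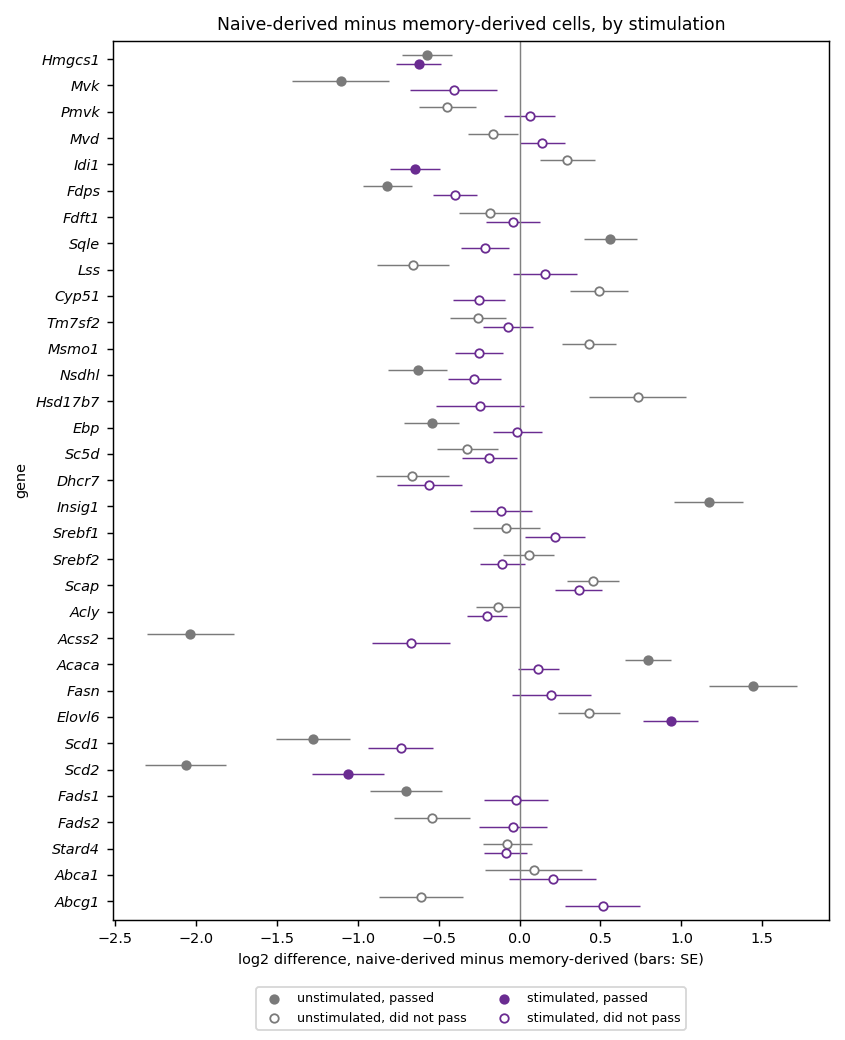
Log2 difference of naive-derived minus memory-derived cells (x axis, bars are ± 1 SE) for the 33 genes (y axis), without and with the final stimulation; filled points passed. Scd2 (-2.06 and -1.06) and Hmgcs1 (-0.57 and -0.62) passed below 0 in both states, and Elovl6 above 0 in stimulated cells (0.93).

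The fourth comparison set the origins against each other after stimulation, and fewer genes parted. Elovl6 was higher in naive-derived cells, and Hmgcs1, Idi1 and Scd2 were lower (1 and 3 of 33; 1.69% and 2.01% of all genes tested). Among all genes called, 45.6% were higher, and 33.9% with scaling to the hybridization controls. Elovl6 stood at 3.12, 3.17 and 2.98 on the naive-derived and 2.42, 2.22 and 1.82 on the memory-derived stimulated arrays, with no overlap. The difference was 0.93 (SE 0.171, n = 3 and 3, limma adjusted p = 0.0122), and it did not pass with scaling to the hybridization controls (0.85, adjusted p = 0.0874).

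Scd2 stood at 4.78, 4.97 and 4.73 on the naive-derived against 5.79, 5.70 and 6.17 on the memory-derived stimulated arrays, a difference of -1.06 (SE 0.222, limma adjusted p = 0.0251). Hmgcs1 stood at 6.76, 7.04 and 6.76 against 7.61, 7.25 and 7.56 (-0.62, adjusted p = 0.0302) and Idi1 at 6.91, 6.99 and 7.04 against 7.64, 7.70 and 7.55 (-0.65, adjusted p = 0.0436). For all 3 genes each naive-derived array lay below each memory-derived one. Insig1 (-0.11, 95% interval -0.53 to 0.30), Fasn (0.19, -0.34 to 0.73) and Acaca (0.12, -0.16 to 0.39) did not pass.

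The Elovl6 call held in all 11 fits that left out 1 array, and the 3 lower calls did not. No member remained lower without memory-derived stimulated array 1 or 3 or naive-derived stimulated array 1 or 3 (0 in each limma fit), and 1 did without naive-derived unstimulated array 1 or 2. The Scd2 call was lost without memory-derived stimulated array 1 or 3 (0.0686, 0.0998), or naive-derived stimulated array 1 or 3 (0.0664, 0.0885). The Hmgcs1 call was lost without memory-derived stimulated array 1 or 3 (0.126, 0.117), naive-derived unstimulated array 1 or 2 (0.0511, 0.0511), or naive-derived stimulated array 1 or 3 (0.0933, 0.106). The Idi1 call was lost without memory-derived unstimulated array 2 (0.0591), memory-derived stimulated array 1, 2 or 3 (0.128, 0.148, 0.0988), naive-derived unstimulated array 1 or 2 (0.0607, 0.0607), or naive-derived stimulated array 1, 2 or 3 (0.113, 0.0993, 0.0985). With the replicate block the count of lower genes was 1, with Scd2 called (adjusted p = 0.0245) and Hmgcs1 (0.0594) and Idi1 (0.0646) not.

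The members can be ordered by group. For the 8 genes that rose in memory-derived cells, the naive-derived unstimulated mean lay between the memory-derived unstimulated and stimulated means in 6 and above both in 2, Fasn and Acaca. For the 9 that fell it lay between them in 4, below both in 4 and above both in 1, Elovl6. Averaged over the 8 risers and set against the memory-derived unstimulated mean, the arrays stood at 0.70 to 0.78 in naive-derived unstimulated, 0.89 to 0.93 in naive-derived stimulated and 1.05 to 1.13 in memory-derived stimulated cells. The 9 fallers averaged -0.85 and -0.85 in naive-derived unstimulated, -1.15 to -0.88 in naive-derived stimulated and -1.03 to -0.83 in memory-derived stimulated cells. These genes were picked for the memory-derived response, so the averages are a description. Unstimulated memory-derived array 3 was the lowest of all 11 arrays for 6 of the 8 risers and the highest for 8 of the 9 fallers.

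Other probe sets of the same genes bear on how far each value rests on 1 probe set. Of the 17 genes called in the first comparison, 11 had further probe sets above the filter level, and in 9 of these all of them differed with the same sign (16 of 18 probe sets). The exceptions were Fads1 and Abcg1: their other probe sets differed by 0.11 and 0.07, against -0.69 and -1.27 for the ones used. For Scd2 the other 2 probe sets differed by -1.03 and -0.69, for Idi1 the other differed by 1.32, and for Msmo1 the other differed by 0.09. For Acss2 the other 2 differed by -1.82 and -0.21, and by -2.41 and -0.35 between the origins without stimulation. With the mean of all probe sets in place of the highest, the change of Fdps was -0.17 and that of Fads1 -0.29, and neither passed. The only other probe set of Fdps did not reach the filter level on 2 arrays. Insig1, Sqle, Fasn, Ebp and Dhcr7 had a single probe set each.

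The surrounding pathways, taken from 5 further lists, also held genes that moved in both directions. In memory-derived cells, 13 of the 58 genes tested rose and 11 fell on stimulation (22.4% and 19%), against 14.3% and 17.3% of all genes tested, so the share that fell was near that of all genes. Of 11 genes that process or degrade SREBP and Insig proteins, 1 rose and 0 fell; the riser was Mbtps2, the site-2 protease that frees SREBP from the membrane, at 0.44 (SE 0.14). Of 6 partners and targets of LXR, 2 fell: Mylip, an LXR-induced ubiquitin ligase, at -1.03 (SE 0.237) and the partner Rxrb at -0.58. The median of that list was 0.02.

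Of all genes tested, 14.3% rose and 17.3% fell in memory-derived cells. Of 12 genes of the non-sterol isoprenoid branch, 3 rose and 1 fell there (25% and 8.33%). The largest were Rabggtb, a subunit of the Rab geranylgeranyl transferase, at 0.89 (SE 0.22), Nus1, a subunit of the dolichol-forming prenyltransferase, at 0.89 (SE 0.194), and Fnta, the shared alpha subunit of farnesyl and geranylgeranyl transferase, at -0.56 (SE 0.121). Of 20 genes of fatty acid elongation, activation and esterification, 7 rose and 4 fell (35% and 20%). Among them were Hacd1, a dehydratase of the elongation cycle, at 0.95, Elovl5, an elongase of polyunsaturated chains, at -0.90 and Lpin1, a phosphatidate phosphatase, at -0.86. Of 9 genes of sterol binding and lysosomal export, 2 rose and 4 fell (22.2% and 44.4%). Among them were Lbr, an inner nuclear membrane protein with sterol C14 reductase activity, at -1.21 (SE 0.213) and Tmem97, an endoplasmic reticulum protein of cholesterol handling, at 0.89.

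By origin, 10 of the 58 genes were higher and 10 lower in unstimulated naive-derived cells, and 2 and 2 in stimulated ones. These are 17.2% and 17.2% of them unstimulated, against 10.9% and 14.9% of all genes tested. In stimulated cells they are 3.45% each way, against 1.69% and 2.01%. Lpin1 stood at 4.22, 3.65 and 4.44 on memory-derived unstimulated, 3.05, 3.47 and 3.20 on memory-derived stimulated, 1.95 and 2.03 on naive-derived unstimulated and 2.03, 1.80 and 2.07 on naive-derived stimulated arrays. Naive-derived cells were lower for Lpin1 without overlap in both states, with a difference of -2.11 unstimulated (SE 0.22, limma adjusted p = 0.000212) and -1.27 stimulated (SE 0.197, limma adjusted p = 0.00501). Hacd1 went the other way, at 2.15, 1.84 and 1.68, then 2.89, 2.78 and 2.86, then 3.50 and 3.79, then 4.11, 4.07 and 4.29 in the same order of groups. It was higher in naive-derived cells by 1.76 unstimulated (limma adjusted p = 0.000139) and 1.31 stimulated (0.000602). In naive-derived cells 0 of the 58 genes passed for stimulation in limma, as only 0.0135% of all genes tested did. At an unadjusted p below 0.05 there were 4 of the 58, against 8.46% of all genes.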

How the data were processed

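RNA of 11 cultures was hybridised to Affymetrix 3' arrays after one-cycle labelling with biotin, per the labels' protocols. The deposited values are log10 probe set values, inferred from the hybridization controls (means 1.38 for bioB, 1.87 for bioC, 2.58 for bioD and 3.65 for cre); Affymetrix Expression Console is named in the submitters' processing notes, and the summarization and log base are not given in the sources used here. All 11 arrays held the same sorted values (within 1e-06), as quantile normalization leaves them, though no label or header records that step. Precision is limited by how many arrays there are.

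The log10 values were turned into log2 by a factor of 3.32. Of 45101 probe sets, 64 were controls, 34945 had 1 gene symbol, 932 several and 9160 none in the annotation used; each of 18193 genes took its single-symbol probe set of highest mean. Genes above the 40th percentile (1.54) on at least 2 arrays were fitted in limma 3.58.1 (R 4.3.3; lmFit and eBayes, 4 groups, 7 residual and 3.86 prior degrees of freedom), two-sided, with Benjamini-Hochberg adjustment within a comparison. Self-tests on simulated data preceded the fits. Alternatives changed the filter, the probe set rule, the scaling, the variance model, the arrays and the block. Called members are named with their results; in the further lists, up to 3 called genes per list. The members and lists were chosen with earlier results of these data known. Figures used matplotlib 3.10.9 in Python 3.11.15.

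In the labels the replicate number is that of the experiment, which pairs arrays of different groups. Deviations from group means correlated at -0.0716 to 0.112 within an experiment (15 pairs) and at -0.131 to 0.112 between experiments (30 pairs). The main model holds no block.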

Additional observations from a re-analysis of the deposited data

Results flagged for a closer look

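The response of Insig1 to the final stimulation differed between origins by a test of the difference itself: naive-derived minus memory-derived, it was -1.28 on the log2 scale (SE 0.286, limma adjusted p = 0.0438). Insig1 rose by 1.50 in memory-derived cells, on 3 of 3 stimulated arrays above all unstimulated ones. In naive-derived cells the difference was 0.22, and every stimulated array also lay above both unstimulated ones. The unstimulated mean was 4.86 in naive-derived and 3.69 in memory-derived cells. The actin 3' minus 5' difference moved with the groups, and that of Gapdh overlapped between unstimulated and stimulated cells of each origin. The part of either was not tested. Without memory-derived unstimulated array 3 the interaction was -1.04 (adjusted p = 0.0251). The call was lost in 13 of 18 alternatives: in 9 of the 11 fits that left out 1 array, with the replicate block (adjusted p = 0.0766), with control scaling (0.0979), with no filter (0.0591) and with experiments 1 and 2 only (0.0796).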

How the results depend on the processing

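Of 664 recomputed values of the 35 calls described above, 0 changed direction, 543 stayed past the threshold and 121 did not. Some of these could not change direction: another filter, another variance model or leaving out arrays of other groups does not alter a difference. The 8 rises in memory-derived cells were 7 or 8 under every alternative, and no member was called for stimulation in naive-derived cells under any. With experiments 1 and 2 only, which leaves out arrays, the counts were 5 falls in memory-derived cells, 4 lower by origin without and 1 with stimulation, and 0 for a negative interaction. With control scaling they were 5 lower by origin without stimulation, 0 higher and 1 lower with it, and 0 for a negative interaction (369 and 146 of all genes called in the last 2 comparisons); the cause was not tested. Of the calls in memory-derived cells, control scaling ended those of Fdps, Fads1 and Elovl6. With a trended, robust variance model there were 7 higher by origin without stimulation, and 5 negative and 1 positive interactions. With a random block by origin and experiment (consensus correlation 0.122) there were 3 and 1, with the mean of probe sets 2 negative, with no filter 0 and with the replicate block 0. The replicate block also left 1 lower by origin with stimulation; the calls it ended are named beside the results, and it ended no others. Leaving out 1 array in turn gave 4 to 12 falls in memory-derived cells, 3 to 5 higher and 4 to 12 lower by origin without stimulation, 0 to 3 lower with it, and 0 to 4 negative and 0 to 2 positive interactions. Values near the filter level, such as Abca1, cannot show small changes.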
